A study of Homo sapiens with 8 samples.

Results

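ATF4 and 7 genes of amino acid supply were examined for Ago2 binding and RNA abundance after translation was blocked with emetine. The members were the peaks of the deposited table whose gene symbol was ATF4, ASNS, PSAT1, SLC7A1, SLC7A5, SLC7A11, XPOT or MARS, which gave 39 of 22506 peaks, in 8 of 6326 genes. SLC7A1 held 15 peaks, SLC7A5 12, SLC7A11 4, XPOT 3, MARS 2, and ATF4, ASNS and PSAT1 1 each.

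ATF4 is the transcription factor of the integrated stress response. Upstream reading frames in its 5' UTR hold back its translation until eIF2alpha is phosphorylated, for instance when uncharged tRNA activates the kinase GCN2. It then binds C/EBP-ATF response elements in genes that make, import and charge amino acids. Ago2 is the Argonaute protein that carries microRNAs to their target mRNAs, mostly to 3' UTRs, and SLC7A1 is known from liver cells as an mRNA whose microRNA repression is lifted under stress.

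All libraries came from 293S, a subline of HEK293 (human embryonic kidney), grown as an adherent layer in serum-containing medium. The control cells had no treatment, and the treated cells were given 20 µg/mL emetine, a blocker of translation elongation, for 60 minutes. Each treatment was 1 biological replicate, divided into 3 aliquots for crosslinking and immunoprecipitation of Ago2 (CLIP) with antibodies from Abnova, Santa Cruz and Sigma, and 1 aliquot for RNA sequencing. Replicate error below is therefore the spread between aliquots and antibodies, not between separately grown cells, and p-values measure that spread alone.

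The table gives an average and a ratio per peak, from which read numbers per library were recovered for 22480 peaks, all 39 member peaks among them. Library totals in listed peaks were 39370 to 117275 reads for CLIP. The RNA reads recovered in the same way numbered 3718512 with emetine and 1536782 in the control, and are not full library sizes. Within a treatment the CLIP libraries are called 1 to 3 in order of decreasing scale factor, and their antibodies were not assigned. Library 1 was the shallowest of each treatment, with 40397 reads with emetine and 39370 in the control. Of 8 HEK293 markers, VIM and NEFL had peaks and the other 6 had no listed peak, and 0 of 12 markers of other cell types had one. Intervals cover counting error only.

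ASNS, asparagine synthetase, is the textbook target of ATF4, and its promoter is shown because it holds a match to the C/EBP-ATF response element. The stretch runs from chr7:97872438-97872506 (GRCh38.p14, minus strand, RefSeq) and is written 5' to 3', with the match to TGATGNAAN in capitals:

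ASNS promoter: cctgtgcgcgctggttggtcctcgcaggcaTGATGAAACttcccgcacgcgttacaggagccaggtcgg

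The match lies from -68 to -60 relative to the start of transcription. TGATGNAAN was searched on both strands in the 250 bases before each start. Of 7 members in the RefSeq promoter table (SLC7A11 has no entry), ASNS had a match at 1 of its 2 listed starts and the others had none. Of 35116 promoters of all genes, 1100 (3.13%) had a match. This is a description of letters, not of binding in these cells.

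RNA abundance was compared first, between 1 library per treatment, so these differences have no replicate check and no test. The ATF4 mRNA was at a higher level with emetine and the mRNAs of all 7 other genes at a slightly lower one. For ATF4, 130 emetine and 36 control reads gave a log2 ratio of 0.51 after the authors' scaling (95% exact interval -0.03 to 1.08). That interval reaches 0. A ratio at or above that of ATF4 was found for 349 (6.02%) of the 5793 genes that reached 50 RNA reads.

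The 2 synthesis enzymes were both lower. ASNS, with 1403 emetine and 639 control RNA reads, had a log2 ratio of -0.21 (95% exact interval -0.35 to -0.07). PSAT1, the aminotransferase of serine synthesis, was at -0.33 on 517 and 256 reads (95% exact interval -0.55 to -0.11). The intervals of both excluded 0.

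The 3 transporters and the 2 genes that act on tRNA had RNA ratios in the same range. SLC7A1 (CAT-1, the importer of arginine and lysine) was at -0.23 (95% exact interval -0.39 to -0.07) and SLC7A11 (xCT, the cystine-glutamate exchanger) at -0.19 (-0.35 to -0.02). SLC7A5 (LAT1, the importer of leucine and other large neutral amino acids) was at -0.14 (-0.51 to 0.25), on only 194 and 84 reads. XPOT, the exportin that carries tRNA out of the nucleus, was at -0.33 (-0.46 to -0.20), and MARS, methionyl-tRNA synthetase, at -0.15 (-0.37 to 0.08). So 7 of 8 members lay below 0, beside 49% of all genes, and the intervals of SLC7A5 and MARS reached 0 as that of ATF4 did. The median of the 7 was -0.21, against 0.01 over all genes with an SD of 0.35 across genes, so each of the 7 lay within the usual scatter of genes; 12.2% of all genes lay below PSAT1, the lowest member.

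RNA levels were also set in order, as normalised reads per 1000 nt of the GENCODE 29 transcript that carries the table's RefSeq accession. ASNS was highest, at 1943 with emetine and 2248 in the control, followed by PSAT1 at 920 and 1157. XPOT followed at 576 and 723, MARS at 470 and 520, SLC7A1 at 341 and 401, and SLC7A11 at 257 and 292. The exact Poisson 95% intervals of neighbours in this order did not overlap in either library. At the low end SLC7A5 was at 107 and 118 and ATF4 at 162 and 114. In the control these 2 overlapped (94.1 to 146 and 79.6 to 157), while with emetine ATF4 was above (135 to 192, against 92.8 to 124). With 1 library each, the spread between samples is unknown.

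**Figure D1:**
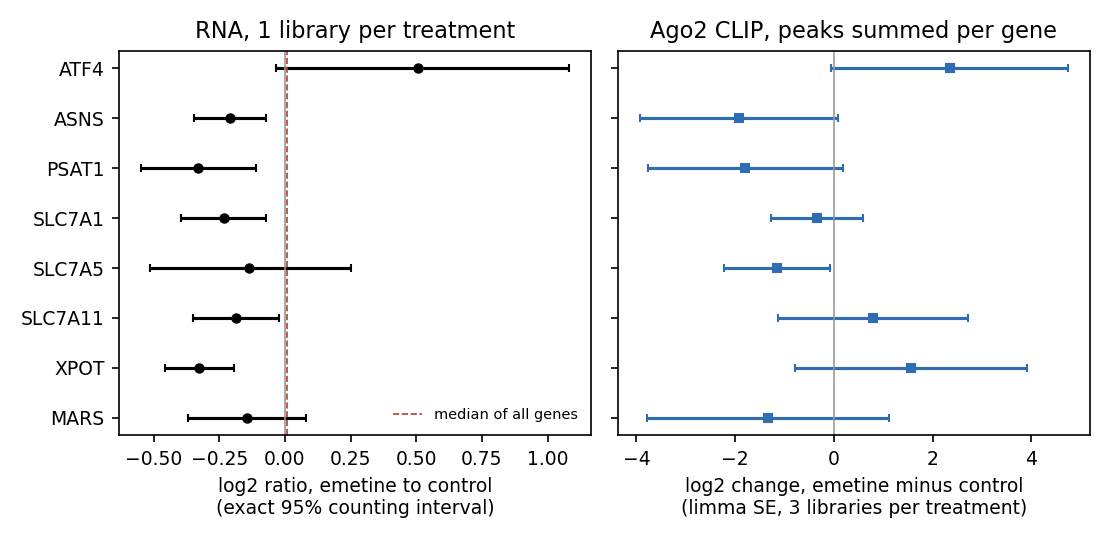
Left, log2 ratio of RNA (emetine to control, 1 library each) with exact 95% counting intervals, the dashed line being the median of all genes. Right, log2 change of the summed Ago2 peaks of each gene (emetine minus control) with the limma standard error over 3 libraries per treatment. ATF4 is the 1 gene above 0 in RNA, and the CLIP errors are far wider than the RNA intervals.

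Ago2 binding was then compared between the treatments. More of the member peaks were without any read after emetine than in the control: 16 of 39 held no emetine read, beside 20.2% of all peaks, and 6 held no control read, beside 17.7% of all. Of the 16, SLC7A1 held 5 and SLC7A5 held 6. Among peaks of other amino acid transporters, 30.9% held no emetine read and 8.82% no control read. For aminoacyl-tRNA synthetases and their cofactors these shares were 32.6% and 27.9%. They were 13.0% and 13.0% for the ATF4 axis (listed below), and 15% and 35% for amino acid synthesis. No member peak passed the test. In limma, fitted on all peaks, 0 of 39 had an adjusted p under 0.05, as did 0% of all peaks, and 1 had an unadjusted p under 0.05, beside 1.06% of all. On the log2 scale 20 peaks were above 0 (50.2% of all peaks were) and 19 below 0 (49.8% of all). The median of the 39 changes was 0.21, against 0.01 over all peaks. It was -1.65 when 3 pairs of overlapping peaks with identical reads, in SLC7A1, SLC7A5 and XPOT, were counted once. That left 17 peaks above 0 and 19 below it, so the median shifted while the balance of directions hardly did. The median over all peaks still counts such peaks separately.

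The member peaks were thin. They held 11 to 34 reads over all 6 libraries (median 14, against 15 over all peaks), and 15 of 39 (38.5%) had reads in 1 library only, against 26.5% of all peaks. Reads in at least 3 libraries were found for 10 of 39 (25.6%), against 45.3% of all. Thin peaks were not particular to the members: for aminoacyl-tRNA synthetases and their cofactors the 2 shares were 41.9% and 11.6%. They were 40% and 40% for amino acid synthesis, 25% and 47.1% for other amino acid transporters, and 14.1% and 54.3% for the ATF4 axis. The part of the members' sparseness in the peaks without emetine reads was not tested. The peaks were 19 to 75 nt wide, and 28 lay in 3' UTRs (71.8%, against 57.6% of all), 10 in coding sequence and 1 in a 5' UTR.

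**Figure D2:**
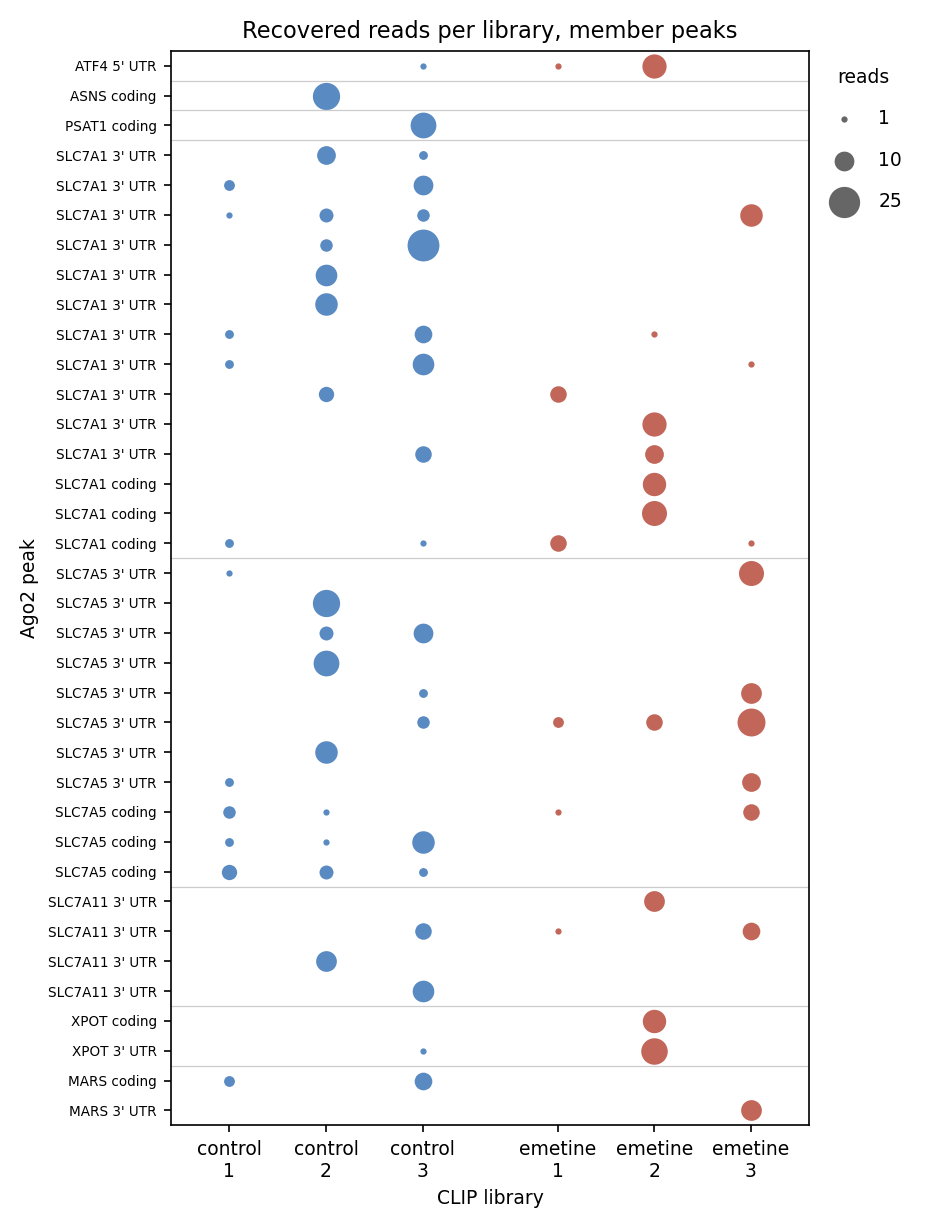
Reads recovered for each member peak (rows, identical overlapping peaks shown once, ordered by genome position within a gene) in each CLIP library (columns); the area of a dot is proportional to its reads, and no dot means 0 reads. Most rows hold a large dot in 1 library, and the dots of SLC7A1 change from control to emetine down its rows.

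The ATF4 peak lay in the 5' UTR, the part of the mRNA that holds its regulatory reading frames, on chromosome 22 from 39917328 to 39917352 (hg19, plus strand). Its reads in libraries 1 to 3 numbered 1, 15 and 0 after emetine, and 0, 0 and 1 in untreated cells. Emetine library 2 supplied nearly all of these reads, and the values of the 2 treatments overlapped. The log2 change was 2.35 (SE 2.12, n = 3 per treatment; limma adjusted p = 0.784), and it was 1.06 without emetine library 2 and 3.82 without emetine library 3. No other ATF4 peak was listed.

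The single peaks of the 2 enzymes were seen in the control only. ASNS held 0 reads with emetine and 0, 19 and 0 in the controls, in coding sequence on chromosome 7 from 97487616 to 97487642. PSAT1 held 0 reads with emetine and 0, 0 and 17 in the controls, in coding sequence on chromosome 9 from 80919722 to 80919753. With the 0 emetine reads replaced by a floor of 3 for the treatment, ASNS was at least 5.70-fold and PSAT1 at least 5.10-fold lower. This bound ignores the spread between libraries. All peaks with recovered reads held at least 11 reads, so a peak without emetine reads was listed through its control reads alone. At 11 control reads the floor already gave 3.30-fold, so these folds are no support for a difference. The ASNS and PSAT1 peaks each came from 1 control library, and without that library no change was left. The log2 changes were -1.92 (SE 2.02) for ASNS and -1.80 (SE 2.00) for PSAT1, each with a limma adjusted p of 0.784.

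SLC7A1 had the most peaks, and their direction followed their order along the mRNA. From the 5' end, the 6 distinct peaks in coding sequence and the first stretch of the 3' UTR had more reads with emetine, and 7 of the 8 towards the 3' end had more in the control. On the log2 scale all 6 were above 0 and all 8 below it. This order was noticed after the values were seen and is given as a description, with no test. Of 365 genes with at least 4 distinct peaks in each direction, 2 (0.548%) had the directions on separate sides in this way, SLC7A1 and HSPA1B. The rule for this count was drawn from SLC7A1 itself, so the share does not measure how unusual that gene is.

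Summed over the 6 distinct peaks on the 5' side, emetine libraries 1 to 3 held 14, 54 and 1 reads and the controls 2, 6 and 8. Over the 8 peaks on the 3' side the emetine sums were 0, 1 and 14 reads, against 8, 43 and 62 in the controls. Scaled by depth, emetine to control totals stood at 4.79 on the 5' side and 0.147 on the 3' side. On the 3' side the emetine reads came almost wholly from 1 peak in emetine library 3, and the controls held reads in all 3 libraries. On the 5' side emetine library 2 carried most reads, and without it 2 of the 6 peaks were above 0.

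The 3' side can be followed peak by peak. The peak with the most reads in SLC7A1 lay on chromosome 13 from 30084581 to 30084614 (minus strand). It held 0 reads with emetine and 0, 4 and 26 in the controls, at least 9.0-fold lower by the same floor. As it was listed through its control reads alone, this fold is no support for a difference. Its log2 change was -3.21 (SE 2.13; limma adjusted p = 0.784). The peak from 30084249 to 30084324 went against its neighbours in read totals, with 0, 0 and 13 reads with emetine against 1, 5 and 4. On the log2 scale it was at -1.76, because its emetine reads came from 1 library. Another 4 peaks of the 3' side, with 11 to 13 control reads each, held no emetine read, and the last 2 held 1 emetine read against 10 and 14.

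On the 5' side the coding peak from 30098328 to 30098359 held 0, 16 and 0 reads with emetine and none in the controls. By the floor it was 5.93-fold higher, with an exact 95% interval of the ratio of totals from 4.29 upward. As it was listed through its emetine reads alone, neither value is support for a difference. Its log2 change was 1.87 (SE 2.02, limma adjusted p = 0.784). The coding peak from 30093603 to 30093625 and the 3' UTR peak from 30088108 to 30088131 repeated this, with 14 and 15 reads, all in emetine library 2. The most 5' peak, from 30106992 to 30107036, held 7, 0 and 1 reads against 2, 0 and 1, and the remaining 2 held 7 against 6 and 9 against 7 reads. For these 3 the exact 95% interval of the ratio of totals included 1, and the difference on the 5' side came from the other 3 peaks, all from emetine library 2.

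Summed over the whole gene the sides offset each other. SLC7A1 held 14, 64 and 15 reads with emetine and 10, 49 and 77 in the controls, with overlapping values, and a log2 change of -0.34 (SE 0.94, n = 3 per treatment; limma adjusted p = 0.960). The sign turned to 0.27 without emetine library 3.

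**Figure D3:**
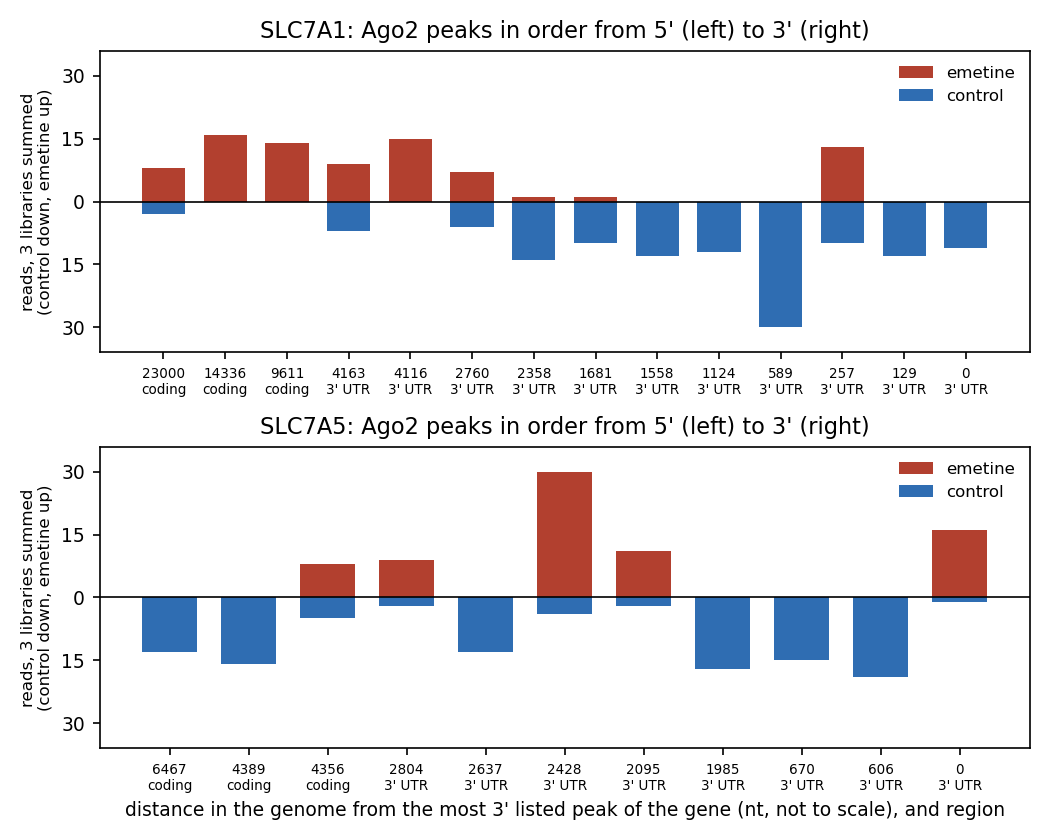
Reads of each distinct peak of SLC7A1 (top) and SLC7A5 (bottom), summed over 3 libraries, with emetine upward and control downward, in order from 5' to 3'. The number under a bar is its distance in the genome from the most 3' listed peak, in nt. In SLC7A1 the control bars dominate on the right and the emetine bars on the left, and in SLC7A5 the directions are mixed.

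SLC7A5 peaks were mixed in direction along the mRNA and included the 3 member peaks whose treatments did not overlap. The 3' UTR peak on chromosome 16 from 87866114 to 87866147 (minus strand) had 3, 7 and 20 emetine reads and 0, 0 and 4 control reads. Every emetine library, after scaling, was above every control there, as was the case for 1 of 39 member peaks and 2.54% of all peaks. Totals differed 8.33-fold (95% exact interval 2.94 to 32.6). The log2 change, 3.89, had an SE of 1.91. The unadjusted p was 0.0423 and the limma adjusted p 0.784, so the difference did not pass. In the authors' deposited table the log2 ratio relative to RNA was 4.02.

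The reverse was seen in 2 coding peaks of SLC7A5, as in 1.43% of all peaks. The peak from 87870153 to 87870190, with the most negative ratio of the gene, held 0 reads in every emetine library and 6, 5 and 2 in the controls. Its log2 change was -4.03 (SE 2.09; limma unadjusted p = 0.0541, adjusted p = 0.784). The peak from 87868075 to 87868124 held 0 against 2, 1 and 13 reads, with a log2 change of -3.68 (SE 2.11; limma adjusted p = 0.784). In the authors' deposited table these 2 peaks had log2 ratios of -3.89 and -3.55. By the floor they were at least 3.90-fold and 4.80-fold lower. Both were listed through their control reads alone, so these folds are no support for a difference. The third coding peak, which ends 1 nt before the latter begins, held 1, 0 and 7 reads against 4, 1 and 0, so neighbouring peaks differed.

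The other SLC7A5 peaks each rested on 1 or 2 libraries. The 3' UTR peak from 87864292 to 87864315 held 19 reads in control library 2 alone, and those from 87865671 and 87866323 held 17 and 13 reads in the same library. Another, from 87864356 to 87864376, held 0 against 0, 5 and 10. In the opposite direction, the most 3' peak (87863686 to 87863724) had 0, 0 and 16 emetine reads and 1, 0 and 0 control reads. Over the whole gene SLC7A5 held 4, 7 and 72 reads with emetine and 17, 61 and 31 in the controls, which overlap, and the log2 change was -1.16 (SE 1.07; limma adjusted p = 0.799). It was -0.50 without emetine library 2, -2.10 without emetine library 3, and -0.24 as a ratio of read totals.

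SLC7A11 peaks, all in the 3' UTR, were split evenly. On chromosome 4 the peak at 139089005 to 139089038 had 1, 0 and 8 emetine reads and 0, 0 and 7 control reads. One further peak was seen only in emetine library 2 (11 reads), 1 only in control library 2 (11 reads) and 1 only in control library 3 (12 reads). The gene sums were 1, 11 and 8 against 0, 11 and 19 reads, and the log2 change was 0.79 (SE 1.93; limma adjusted p = 0.946). As a ratio of read totals it was 0.741 (95% exact interval 0.399 to 1.35), which is on the other side of no change.

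The 2 genes that act on tRNA differed from each other. XPOT reads came from emetine library 2: its coding peak on chromosome 12 (64814240 to 64814263) held 14 reads there and 0 elsewhere. Its 3' UTR pair of overlapping peaks (from 64842294 and from 64842302) held the same 18 reads there, against 1 in control library 3. The log2 change of the sum was 1.56 (SE 2.35; limma adjusted p = 0.876), and it was -0.85 without emetine library 2.

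MARS had 2 peaks on chromosome 12 with a gap of 19 nt between them, 1 on each side of the end of the coding sequence. The coding peak (57910297 to 57910330) held 0 reads with emetine and 3, 0 and 8 in the controls. The 3' UTR peak (57910349 to 57910399) held 0, 0 and 11 reads with emetine and none in the controls. Totals were thus 11 and 11 reads, with a log2 change of -1.33 for the sum (SE 2.45; limma adjusted p = 0.918). With 1 library left out this ranged from -3.0, without emetine library 3, to -0.50, without emetine library 1 or 2.

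Over whole genes, 5 of 8 members were below 0 in CLIP (48.9% of all genes were), and 0 of 8 had an adjusted p under 0.05 in limma, as did 0% of all 6304 genes. At an unadjusted p under 0.05 there were 0 members and 1.84% of all genes. ATF4 was above 0 in both CLIP and RNA, XPOT and SLC7A11 were above 0 in CLIP and below 0 in RNA, and the other 5 were below 0 in both. Set against its RNA, SLC7A5 had the highest Ago2 value of the members in the control, over 11 distinct peaks. That RNA value rested on only 84 control reads, and its error is not in the percentages of SLC7A5 below. Its mean normalised CLIP value over distinct peaks was 16% of its normalised RNA value with emetine and 22.9% in the control, while SLC7A1 was at 4.41% and 4.39%. The other 6 members lay at or under 5.51%, the ATF4 value with emetine, which was 0.353% in the control. With 1 control library left out SLC7A5 was at 18.2% to 27.3%, above every other member. Its value with emetine came from emetine library 3: without that library it was at 5.80%, close to SLC7A1 at 5.77% and below ATF4 at 8.26%. Without emetine library 2, ATF4 was at 1.36%. These percentages compare 2 scales. Each covers the listed peaks of a gene alone, from 1 in ATF4 to 14 in SLC7A1. The RNA value in them was not scaled by transcript length. Between genes they therefore do not rank Ago2 binding per mRNA.

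The gene sums most like the mean profile of the 8 members over the 6 libraries, by Euclidean distance of centred log2 values, were those of ZDHHC18 (0.57), RAP2C (0.58) and KLHL15 (0.62), among genes with at least 100 reads outside all lists. Their log2 changes were -0.38, -0.45 and 0.24, and the limma adjusted p was at least 0.931 for each.

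Other genes of the pathway gave the same absence of calls, with 0 genes and 0 peaks passing in each list in limma. Of the ATF4 axis, which covers eIF2alpha kinases, phosphatase subunits, partners and targets, 12 of 21 listed genes had peaks, 8 above and 4 below 0 in CLIP, and 7 of 12 were above 0 in RNA. PPP1R15B, a phosphatase subunit that reverses eIF2alpha phosphorylation, held 32, 136 and 120 reads with emetine and 24, 176 and 165 in the controls, a log2 change of 0.01 (SE 0.60). Its 27 peaks make it far better covered than any member. SESN2, an ATF4 target that restrains mTORC1, was at -0.94 (SE 0.88) and DDIT4, another such target, at 0.43 (SE 0.91).

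Of 18 other amino acid transporters 10 had peaks, 5 above and 5 below 0 in CLIP, and 7 were below 0 in RNA. SLC38A2, the stress-inducible glutamine carrier, held 9, 105 and 50 against 14, 66 and 66 reads, and SLC1A5 held 26, 22 and 69 against 38, 51 and 65. Both sets of values overlapped, with log2 changes of 0.03 (SE 0.84) and -0.41 (SE 0.81). SLC38A1, a glutamine carrier of the same family, held 74 against 147 reads, a ratio of read totals of 0.559 (95% exact interval 0.417 to 0.745), while its log2 change was 0.12 (SE 1.12).

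Of 20 genes of amino acid synthesis 10 had peaks, and 9 of these were above 0 in CLIP, with a median log2 of 1.24, against 0.04 over all genes. These sums were small: GLUL (glutamine synthetase), with the most reads, held 10, 18 and 27 against 7, 14 and 27, a log2 change of 0.43 (SE 1.19). MTHFD2, a mitochondrial folate enzyme, was at 0.51 (SE 1.43). ASNS and PSAT1, which belong to the same pathways, were below 0, each on 1 control library.

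Of 22 aminoacyl-tRNA synthetases and cofactors other than MARS, 15 had peaks, 8 above and 7 below 0. SARS, seryl-tRNA synthetase, held 10, 33 and 28 reads with emetine and 8, 76 and 14 in the controls, at a log2 change of 0.18 (SE 1.06). NARS was at 1.94 (SE 1.73). TARS held 0, 0 and 3 against 1, 76 and 0 reads, a change of -2.56 (SE 2.45), again from 1 control library. In RNA 9 of the 15 were above 0, with a median log2 ratio of 0.07, while MARS was at -0.15.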

How the data were processed

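Each Ago2 peak was deposited, per the file headers, with its hg19 position, region, gene and RefSeq transcript, a normalised average and an emetine to control ratio, both logarithms made by the authors. The base is not in the header; the values fit the natural log, and log2 values were obtained from the deposited natural log values by division. Per the submitters' processing notes, Bowtie 0.12.8, TopHat and DESeq were used, with no roles given, and the build was hg19. Coordinates keep the form of the table; the peak caller and start convention are not given in the sources.

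For a treatment, ln(1 + reads × factor) was averaged across its 3 CLIP libraries and the same term of its RNA library subtracted, as inferred from the values. Whole reads that satisfy this were found for 22480 of 22506 peaks (99.9%) within 2e-13. Of 1000 shifted values 0 matched in each treatment, and simulated tables were recovered at 100%. The other 26 peaks were left out. Normalised means reads times the library factor. limma 3.58.1 in R 4.3.3 was run with a trend on log2(reads × factor + 1), treatment alone, with Benjamini-Hochberg adjustment over all peaks or all genes, after tests on simulated counts. Gene sums include all peaks of a gene. Intervals are exact at 95% (scipy 1.17.1), and a count of 0 was set at 3 reads over the 3 libraries of a treatment.

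Members, lists and tests were chosen with earlier results of these data known. Named peaks were the 3 with the most reads of a gene and those with its extreme ratios, and others were named after their values were seen. Of other lists, the 3 genes with the most reads were named, except 1 that is not reported here. MicroRNA seed matches under peaks were not searched, since hg19 sequence was not used here.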

Additional observations from a re-analysis of the deposited data

How the results depend on the processing

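No paired analysis was possible because the deposited values could not be assigned to antibodies, so no antibody could be used as a block. Under the alternatives (scaling by total reads, added constants of 0.5 and 5, reads in at least 3 libraries, limma-voom and each library left out) 0 peaks had an adjusted p under 0.05. The same held for genes, also with identical peaks counted once, except that limma-voom called 1 gene, MALAT1, which is no member and had a log2 change of 0.05 in limma with a trend; the cause was not tested. Leaving out 1 library gave 0 to 0 peaks and genes, with 303 to 450 peaks and 68 to 196 genes at an unadjusted p under 0.05.

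The number of member peaks below 0 was 19, and 17 to 24 with 1 library left out. It was 5 of 10 among those with reads in at least 3 libraries, where fewer peaks were counted. There, 3 SLC7A1 peaks of the 3' side were below 0 and 1 of the 5' side above 0; these counts were chosen after seeing the data. As ratios of read totals SLC7A11 (log2 -0.43) and MARS (log2 0.15) changed direction. With 1 library left out SLC7A1 ranged from -0.81 to 0.27, SLC7A11 from -0.97 to 1.81, XPOT from -0.85 to 2.77, SLC7A5 from -2.10 to -0.50, MARS from -3.0 to -0.50 and ATF4 from 1.06 to 3.82. ASNS ranged from -2.89 to 0 and PSAT1 from -2.70 to 0. The CLIP values relative to RNA with 1 library left out were added after seeing the data. The unadjusted p of the SLC7A5 peak at 87866114 ranged from 0.00589 to 0.0989. RNA directions held for all 8 members under the other constants and when centred on the median of all genes. Neither setting could have turned a direction. The lowest normalised RNA value was 229, and the median was 0.01 beside a member ratio nearest to 0 of -0.14. The limit of 1 RNA library per treatment remains. The median standard error of a peak, 2.04 on the log2 scale, limits what these reads can show.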
